A study of Mus musculus with 16 samples.

Results

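Heat shock chaperones are proteins that bind unfolded or newly made proteins and help them to fold. The set described here was 10 mouse genes listed by name, namely Hspa1a, Hspa1b, Hspa8, Hsph1, Dnajb1, Hspb1, Hsp90aa1, Hsp90ab1, Hspd1 and Hspe1. They were found by their gene symbols in the platform annotation of a microarray series, and 8 of the 10 were measured among 19505 named genes. The 2 others, Hspa8 and Hsp90ab1, were not analysed here. The rule is a list of names and sets no condition on the measured values.

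The samples came from the olfactory mucosa of S100a5-tauGFP mice. In these mice green fluorescent protein (GFP) is driven by the promoter of S100a5, which encodes a calcium-binding protein and is active in odor-stimulated sensory neurons. Mice of both sexes, 24 in all and 7 to 12 weeks old, were kept singly for 40 hours in chambers of clean air flowing at 3.1 L/min, and from hour 26 they received 10-second pulses every 20 min of indole/ionone (odor) or of filtered air (vehicle). Mucosa was dissociated in pools of 3 mice, 4 pools in the odor arm and 4 in the vehicle arm, and each pool was sorted by fluorescence into a GFP+ and a GFP- sample. The 16 samples thus fell into 4 groups of 4, namely GFP+ cells after odor, GFP- cells after odor, GFP+ cells after vehicle and GFP- cells after vehicle. All 4 groups carried the reporter and had been dissociated and sorted, and no undissociated tissue was analysed here. The sources used here give neither the strain background nor the odorant doses nor the ionone isomer. Each sample was 1 Clariom S array, a 1-colour array whose deposited values were taken as log2 levels. All levels below are on this scale, and each difference is a difference of log2 levels.

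Cells under heat or other stress activate heat shock factor 1, which binds heat shock elements, inverted repeats of GAA and TTC, upstream of chaperone genes. Hspa1a and Hspa1b encode the strongly inducible Hsp70, which is scarce in most unstressed cells. Dnajb1 encodes an Hsp40 cochaperone that stimulates the ATPase of Hsp70, and Hsph1 encodes Hsp110, which exchanges the nucleotide of Hsp70. Hsp90aa1 encodes the inducible cytosolic Hsp90, Hspb1 a small heat shock protein, and Hspd1 and Hspe1 the mitochondrial chaperonin Hsp60 and its lid Hsp10. Chaperone transcripts are also known to rise while tissue is dissociated into single cells.

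The start regions of 5 genes are shown because the results turn on how alike or unlike these genes behaved. Each sequence runs from 250 bases before the start of transcription to 50 after it, 5′ to 3′ on the strand of the gene, from RefSeq for the build GRCm38.p6. Capitals mark GAANNTTC or TTCNNGAA, the shortest form of a heat shock element searched, which reads the same on both strands. Overlapping matches run together.
Hspa1a, chr17:34972107-34972406, minus strand: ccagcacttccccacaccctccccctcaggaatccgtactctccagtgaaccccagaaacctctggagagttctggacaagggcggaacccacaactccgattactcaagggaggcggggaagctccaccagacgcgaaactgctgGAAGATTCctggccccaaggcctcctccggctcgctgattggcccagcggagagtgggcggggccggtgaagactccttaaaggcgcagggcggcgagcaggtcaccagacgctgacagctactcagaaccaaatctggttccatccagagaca
Hspa1b, chr17:34959189-34959488, minus strand: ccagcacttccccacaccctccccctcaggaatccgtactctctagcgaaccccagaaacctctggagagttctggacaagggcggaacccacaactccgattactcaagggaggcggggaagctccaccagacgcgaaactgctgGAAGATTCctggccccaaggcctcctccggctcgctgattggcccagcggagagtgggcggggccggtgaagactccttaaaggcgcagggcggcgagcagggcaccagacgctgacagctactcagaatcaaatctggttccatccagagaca
Dnajb1, chr8:83607925-83608224, plus strand: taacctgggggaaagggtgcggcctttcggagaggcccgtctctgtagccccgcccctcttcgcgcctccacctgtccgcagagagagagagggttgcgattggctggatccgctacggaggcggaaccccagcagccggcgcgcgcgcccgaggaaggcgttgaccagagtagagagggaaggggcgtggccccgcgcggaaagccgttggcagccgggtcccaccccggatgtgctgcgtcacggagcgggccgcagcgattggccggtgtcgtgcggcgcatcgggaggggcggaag
Hsph1, chr5:149636287-149636586, minus strand: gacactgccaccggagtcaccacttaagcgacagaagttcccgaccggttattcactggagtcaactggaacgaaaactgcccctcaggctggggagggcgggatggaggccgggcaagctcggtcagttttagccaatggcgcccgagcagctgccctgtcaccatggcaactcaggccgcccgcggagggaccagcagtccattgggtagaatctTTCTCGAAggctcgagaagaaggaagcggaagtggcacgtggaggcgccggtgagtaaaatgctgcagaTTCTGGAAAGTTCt
Hspe1, chr1:55087898-55088197, plus strand: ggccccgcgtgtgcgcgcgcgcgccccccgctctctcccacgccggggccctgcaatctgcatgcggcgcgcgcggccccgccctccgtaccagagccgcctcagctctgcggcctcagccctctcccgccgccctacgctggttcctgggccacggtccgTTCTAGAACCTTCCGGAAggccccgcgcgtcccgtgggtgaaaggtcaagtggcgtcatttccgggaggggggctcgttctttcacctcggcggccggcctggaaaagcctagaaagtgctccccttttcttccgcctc

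The Hspa1a and Hspa1b windows differed at 4 of 300 positions (98.7% identical), and the genes lie 10120 bases apart on chromosome 17. Both hold GAAGATTC 104 bases before the start. The Hspe1 window holds 3 overlapping matches, and the window of Hspd1, a divergent neighbour whose gene span overlaps that of Hspe1 by 96 bases, holds the same cluster read from the other strand. Of the 7 measured members with a window, 6 held the 8-letter motif, against 16.97% of 27025 genes with a window and 15.1% of 32851 windows. The exception was Dnajb1, and Hsp90aa1 had no window in the table used. A longer form, with GAA, TTC and GAA or TTC, GAA and TTC each 2 bases apart, was present in 3 of the 7 (Hsph1, Hspd1 and Hspe1), against 0.662% of genes. These matches are letters in the sequence and say nothing on binding in these cells.

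The sort was checked first. S100a5 lay at 16.17 to 16.50 in GFP+ and 14.35 to 15.31 in GFP- cells of odor pools, and at 16.04 to 16.12 in GFP+ and 14.39 to 15.05 in GFP- cells of vehicle pools. The 10 markers of mature sensory neurons averaged 16.21 to 16.29 over GFP+ samples and 15.82 to 16.14 over GFP- samples, so both fractions held neuronal RNA. The GFP- fraction also held other cells. The 8 neutrophil markers averaged 5.06 to 6.30 over GFP+ samples, against 13.53 to 15.66 over GFP- samples, and 8 of 8 were lower in GFP+ cells in either arm. The 7 sustentacular cell markers averaged 8.43 to 8.90 over GFP+ samples, against 10.49 to 11.69 over GFP- samples. Fewer cells of a type and less RNA per cell cannot be told apart in such samples. Antigenomic background probes had medians of 5.63 to 6.05, and the array medians ran from 6.05 to 6.39.

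**Figure D1:**
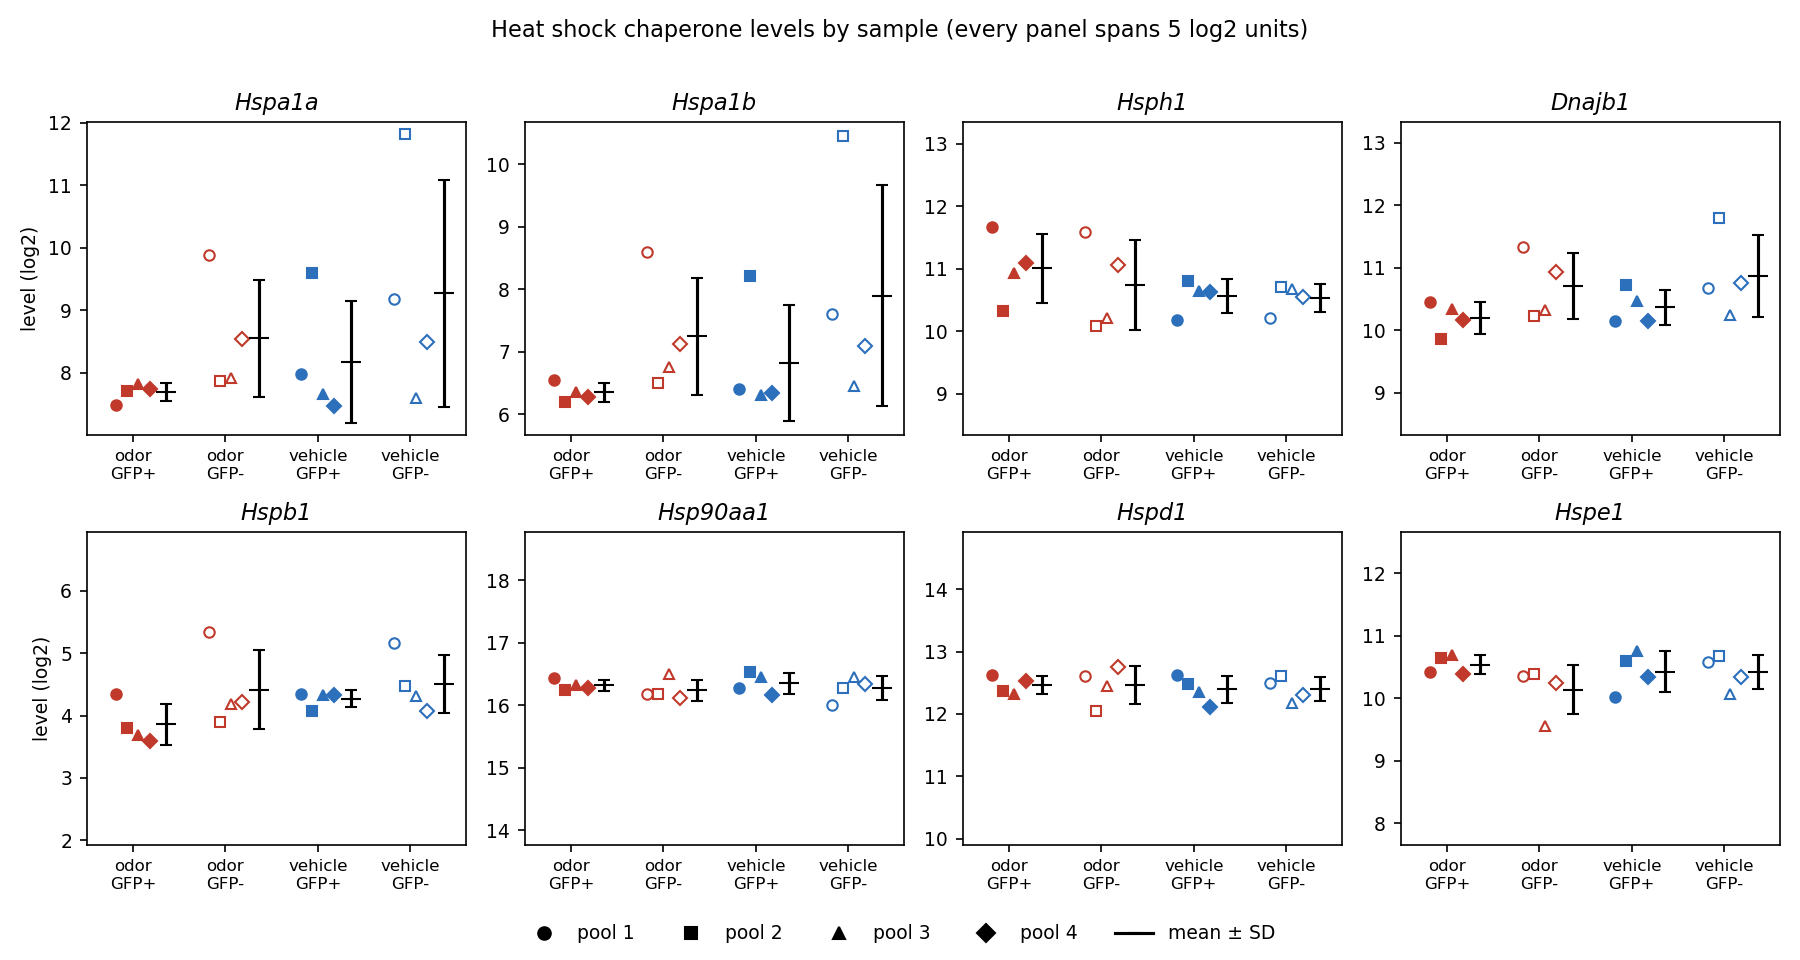
Log2 levels of the 8 measured chaperones on each array, with a panel for each gene spanning 5 log2 units. Symbols mark the pool, filled for GFP+ and open for GFP- cells, red for odor and blue for vehicle, and black bars give the mean ± SD of 4 samples. Hspa1a and Hspa1b spread over more than 4 units, while Hsp90aa1 stays between 16.01 and 16.53.

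Hspa1a and Hspa1b were set apart by their spread between pools. Hspa1a had levels of 7.49, 7.70, 7.81 and 7.74 in GFP+ cells and 9.88, 7.86, 7.92 and 8.53 in GFP- cells of odor pools 1 to 4. In vehicle pools 1 to 4 it had 7.97, 9.59, 7.65 and 7.46 in GFP+ cells and 9.18, 11.82, 7.60 and 8.49 in GFP- cells. Vehicle pool 2 was the highest of its group in both fractions, and odor pool 1 was the highest of the odor GFP- samples but the lowest of the odor GFP+ samples. Hspa1b was highest in the same GFP- samples and in the GFP+ cells of vehicle pool 2, but odor pool 1 was the highest of its odor GFP+ samples. Its levels were 6.56, 6.201, 6.35 and 6.28 in GFP+ cells and 8.60, 6.50, 6.76 and 7.13 in GFP- cells of odor pools 1 to 4, and 6.41, 8.22, 6.31 and 6.34 in GFP+ cells and 7.60, 10.46, 6.45 and 7.09 in GFP- cells of vehicle pools 1 to 4. In GFP+ cells other than those of vehicle pool 2, Hspa1b was only 0.19 to 0.75 above the background median of its array. From the lowest to the highest of 16 arrays Hspa1a differed 20.5-fold and Hspa1b 19.1-fold. As the genes are near-identical copies and the probe sequences were not used here, signal of 1 copy in the probe set of the other cannot be told apart.

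The SD within groups, pooled over the 4 groups, was 1.13 for Hspa1a and 1.11 for Hspa1b, against a median of 0.27 over all genes. They ranked 30 and 35 of 19505 genes. Hsph1 (0.49), Dnajb1 (0.46) and Hspb1 (0.43) varied more than 92.0%, 90.1% and 87.5% of genes. Hspb1 was under the background median on all 16 arrays, so its spread is not that of a measured level. Hspe1 (0.30) lay above 58.6% of genes, and Hspd1 (0.22) and Hsp90aa1 (0.16) above 28.4% and 7.79%. The inducible Hsp70 genes thus stood at one end of the pooled spread and Hsp90aa1 near the other. This did not hold in each group. The SDs of Hspa1a and Hspa1b were 0.14 and 0.15 in odor GFP+ cells and 0.94 each in odor GFP- cells. They were 0.97 and 0.93 in vehicle GFP+ cells, where vehicle pool 2 stood apart, and 1.82 and 1.77 in vehicle GFP- cells. The ranks also take no account of level, and Hsp90aa1 was the brightest of the 8 members.

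**Figure D2:**
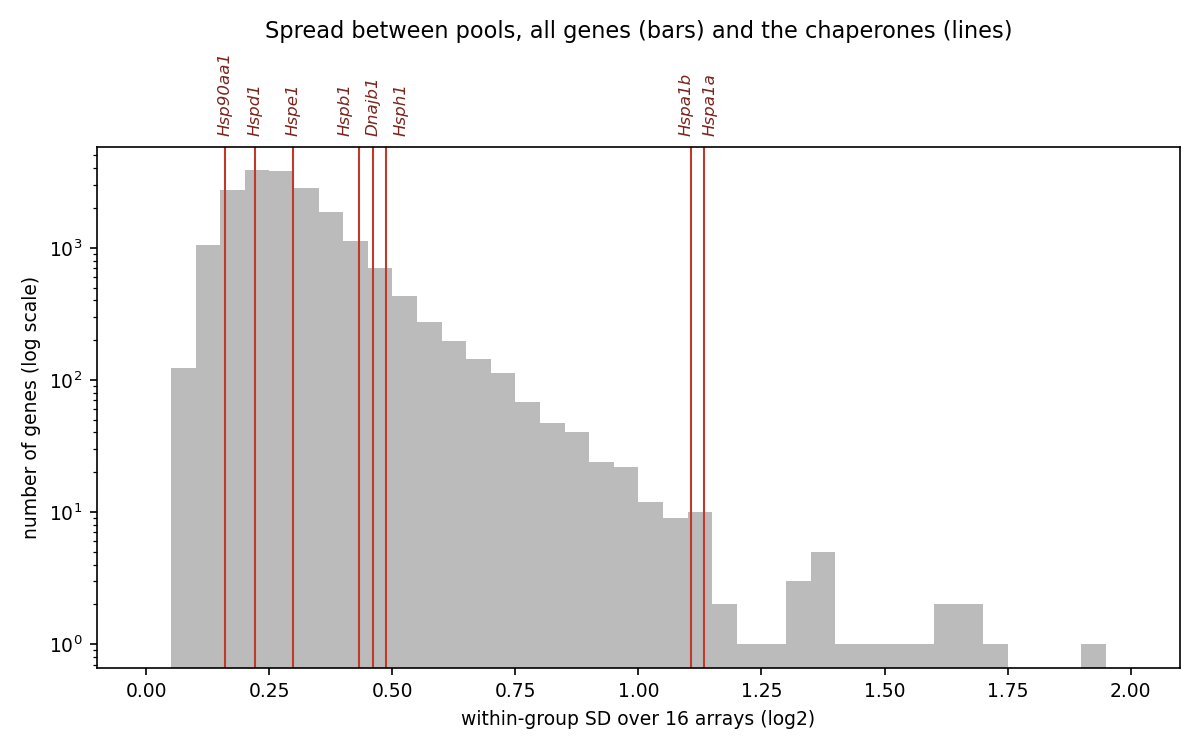
Histogram of the SD within groups of each gene (log2, 16 arrays, log count axis), with a red line for each chaperone. Hspa1a and Hspa1b lie in the sparse upper tail at 1.13 and 1.11, and Hsp90aa1 lies at 0.16 on the low side.

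In vehicle pool 2 the widest margins among the members were those of Hspa1a, Hspa1b and, in GFP- cells, Dnajb1. In its GFP- cells Hspa1b exceeded the next vehicle sample by 2.85, which ranked 1 among the margins of 19505 genes, and Hspa1a by 2.63, which ranked 3. The pool was picked by its high Hspa1a and Hspa1b levels, so these ranks describe it and test nothing. Dnajb1 exceeded the next sample by 1.03, which 0.108% of genes did. In the GFP+ cells of the same pool the margins were 1.81 for Hspa1b, reached by 7 genes, 1.62 for Hspa1a, reached by 12 genes, and 0.25 for Dnajb1, reached by 6.39% of genes. Hsph1, by contrast, stood above the next vehicle sample by only 0.02 in GFP- and 0.16 in GFP+ cells. Of 75 other chaperone and cochaperone genes, 0 exceeded the next sample by 0.5 in either fraction of this pool, a margin that 1.37% of all genes reached in GFP- and 1.66% in GFP+ cells, so a count of 0 is near the background. Beside this, the 12 immediate early genes, which also rise on dissociation, averaged 12.63 in the GFP- cells of vehicle pool 2, against 13.31, 12.29 and 12.86 in pools 1, 3 and 4, and 9.21 in its GFP+ cells, against 9.63, 9.20 and 9.49. By this mean that pool was not the highest in either fraction. Among single genes in its GFP+ cells, Atf3 and Jun were the highest of the vehicle GFP+ samples, and Fos, Egr1, Btg2 and Nr4a1 the lowest. The neutrophil markers of vehicle pool 2 averaged 14.76 in GFP- cells, between the 13.53 and 15.66 of the other pools. Its mature neuron markers averaged 15.82 in GFP- cells, the lowest of all 16 arrays, against 16.01 to 16.14 in the other GFP- samples. The part of these cells, or of dissociation, in the chaperone levels was not tested.

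Odor pool 1, picked in the same way from its GFP- cells, differed from vehicle pool 2 in which members were high. Its GFP- cells exceeded the next odor sample by 1.47 for Hspa1b, 1.35 for Hspa1a, 1.12 for Hspb1, 0.53 for Hsph1 and 0.39 for Dnajb1. As large a margin was reached by 0.082%, 0.149%, 0.318%, 2.54% and 4.22% of genes, in that order. In its GFP+ cells Hsph1 exceeded the next sample by 0.58, a margin reached by 1.56% of genes. There Hspb1 exceeded the next sample by 0.54 (1.88% of genes) and Hspb2, another small heat shock protein, by 0.42. Hspb1 and Hspb2 stayed under the background median in both fractions. Of the 75 other genes only Chordc1, an Hsp90 cochaperone named here after its values were seen, reached a margin of 0.5, at 0.77 in GFP+ cells. A margin of 0.5 was reached by 2.3% of all genes in GFP+ and 2.79% in GFP- cells of odor pool 1, so these counts are near the background. In this pool the immediate early genes averaged 13.14 in GFP- and 9.90 in GFP+ cells, the highest of the odor arm in both fractions, and the neutrophil markers 15.38 and 6.30, also the highest. Their part in the chaperone levels was not tested.

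How the members varied together was described by the deviation of each sample from its group mean, over 16 arrays that share pools and processing. Hspa1a and Hspa1b correlated at r = 0.985 (Spearman 0.915), Hspa1b and Dnajb1 at 0.902 (0.827), and Hspa1a and Dnajb1 at 0.878 (0.727). Without vehicle pool 2 these were 0.944, 0.837 and 0.754 over 14 arrays, and without odor pool 1 as well they were 0.958, 0.689 and 0.635 over 12 arrays. For Hspa1b, both nearest genes among all named genes were members, Hspa1a and Dnajb1, and the next was Tyr at 0.888. For Hspa1a the second was S100a13 at 0.887, ahead of Dnajb1. For Dnajb1, after Hspa1b and Hspa1a, the next was Nr1h4 at 0.818. Tyr and Nr1h4 were under the background median on all 16 arrays, so no level was measured for them.

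Hsph1 went with Dnajb1 at r = 0.673 and with Hspa1a at 0.350, which fell to -0.04 without vehicle pool 2 and odor pool 1. Its nearest genes were Cntnap1 at 0.886, Olfr342 at 0.853 and Tra2a at 0.848. Hspb1 was nearest to Cenph at 0.929, Plin2 at 0.920 and Hdc at 0.892, Hsp90aa1 to Prr16 at 0.883, Dcdc2c at 0.867 and Epb41l5 at 0.865, and Hspd1 to Syt10 at 0.884, Gm10334 at 0.878 and Slc25a24 at 0.858. Of these, Cntnap1, Prr16 and Gm10334 were under the background median on all 16 arrays and Dcdc2c on 15, so these correlations are not of measured levels, and Plin2, Hdc, Slc25a24 and Cenph were above it on only 8, 10, 11 and 13 arrays. Hspd1 and Hspe1, neighbours that encode partner proteins and share the motif cluster shown above, correlated at only -0.02. The 3 genes nearest to Hspe1 were instead the ribosomal protein genes Rpl11 at 0.957, Rpl14 at 0.942 and Rpl41 at 0.942. These stayed at 0.905 or above without odor pool 3, whose GFP- sample had the lowest Hspe1 level of 16 arrays, at 9.56. The GFP+ sample of that pool, at 10.70, was the highest of the odor GFP+ samples.

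**Figure D3:**
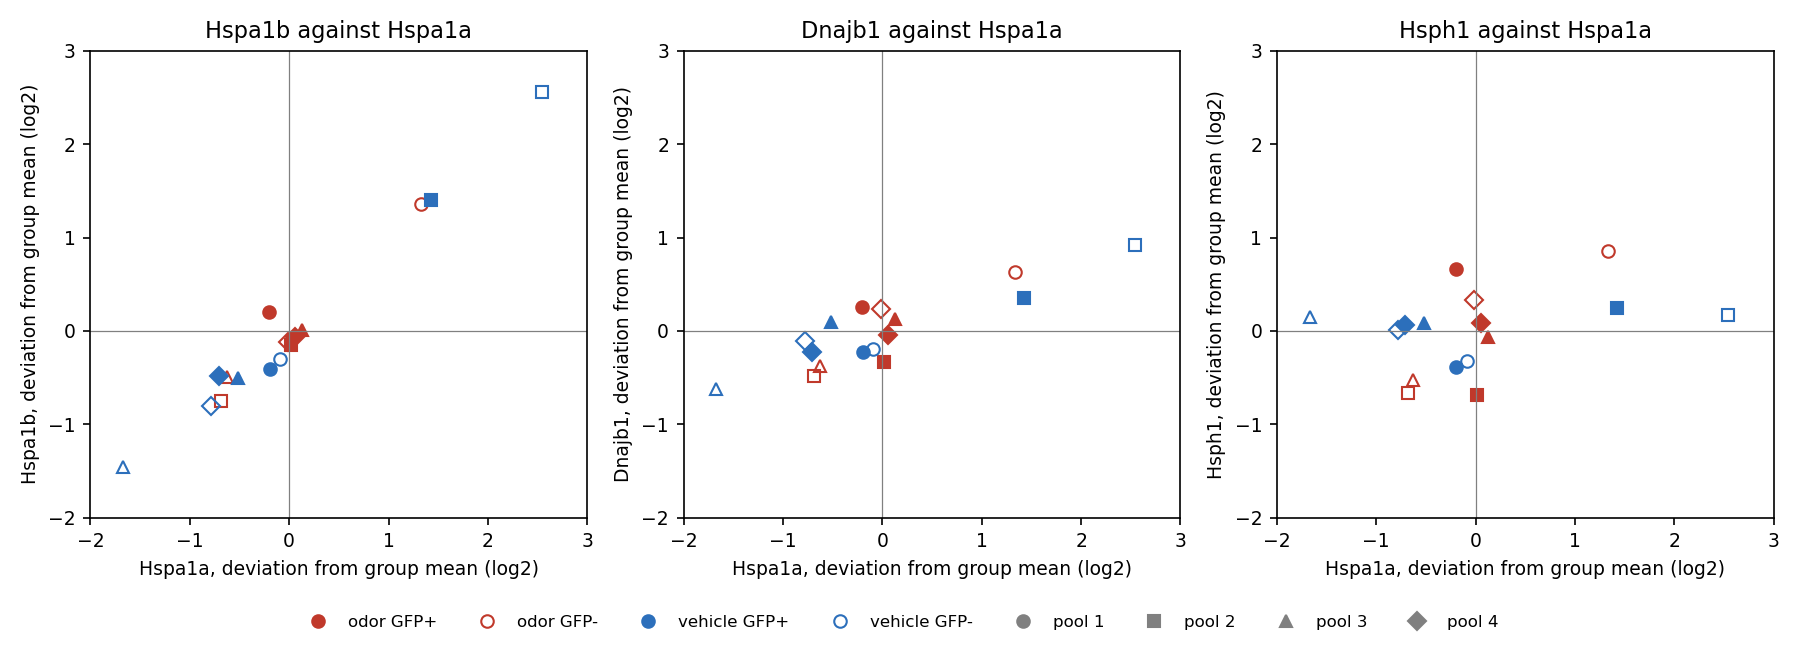
Deviation of each sample from its group mean (log2) for Hspa1b, Dnajb1 and Hsph1, each against Hspa1a. Hspa1b lies along a line with Hspa1a (r = 0.985) and Dnajb1 along a shallower one (r = 0.878), while the Hsph1 points scatter (r = 0.350).

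The next question was whether the chaperones differed between GFP+ and GFP- cells, tested on the 4 within-pool differences of each arm. In odor pools, 0 of 8 members passed an adjusted p of 0.05 with limma, while 18.6% of all genes did (7.96% higher and 10.6% lower), and 4 of 8 had an unadjusted p under 0.05, as did 31.6% of genes. The median difference of the members was -0.25, against 0.11 for all genes. Hspb1 had -0.56 ± 0.19 (SE, adjusted p = 0.0717), but its levels of 3.597 to 5.34 were under the background median on all 16 arrays, so no level was measured for it. Hspa1b had -0.90 ± 0.33 (adjusted p = 0.0874), Hspa1a -0.86 ± 0.39 (adjusted p = 0.152) and Dnajb1 -0.50 ± 0.21 (adjusted p = 0.126). The Hspa1a levels of GFP+ and GFP- cells did not overlap in odor pools, with GFP+ samples lower, as for 10.6% of genes. Hspe1 levels did not overlap either, at 10.43, 10.65, 10.70 and 10.40 in GFP+ and 10.36, 10.39, 9.56 and 10.24 in GFP- cells of pools 1 to 4, with GFP+ samples higher, as for 11.1% of genes, but the difference of 0.41 ± 0.22 did not pass (adjusted p = 0.231).

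In vehicle pools 1 of 8 members passed, Hspa1b, which fell by 1.08 ± 0.33 on the log2 scale in GFP+ relative to GFP- cells (SE, n = 4 pools, adjusted p = 0.0421). The background was 19.7% of genes, with 8.86% higher and 10.8% lower. The levels of GFP+ and GFP- cells overlapped for each member in vehicle pools, where 21.9% of genes had levels that did not overlap. This call ended without vehicle pool 2 (-0.69, adjusted p = 0.207), with centring on array medians (adjusted p = 0.0706) and with quantile normalization (adjusted p = 0.142). It also ended without vehicle pool 1, vehicle pool 4 or odor pool 4 (adjusted p = 0.126, 0.0751 and 0.0584), with ordinary variances (0.152) and without the pool as a block (0.305). Hspa1a had a difference of the same size, -1.10 ± 0.39 (adjusted p = 0.0700), and Dnajb1 one of -0.50 ± 0.21 (adjusted p = 0.128). For Hsph1, Hsp90aa1, Hspd1 and Hspe1 the differences lay between -0.0050 and 0.08, with SEs of 0.14 to 0.22.

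Pool by pool, GFP+ minus GFP- for Hspa1b was -2.05, -0.30, -0.40 and -0.84 in odor pools 1 to 4 and -1.19, -2.24, -0.13 and -0.75 in vehicle pools 1 to 4. It was lower in GFP+ cells in 8 of 8 pools, as 11.4% of genes were. Hspa1a was lower in 7 of 8, as 15.8% of genes were in 7 or 8, with -2.39, -0.16, -0.10 and -0.79 in odor pools and -1.21, -2.22, 0.05 and -1.03 in vehicle pools. Dnajb1 was lower in 6 of 8, as 21.4% of genes were in 6 or more, with -0.88, -0.36, 0.01 and -0.78 in odor pools and -0.53, -1.07, 0.22 and -0.62 in vehicle pools. For these 3 genes the differences were smallest in size in odor pools 2 and 3 and vehicle pool 3, and largest in odor pool 1 and vehicle pool 2. For Dnajb1, odor pool 4 came close to odor pool 1 (-0.78 against -0.88). Hsph1 ran from -0.04 to 0.72 and Hspd1 from -0.22 to 0.33 over the 8 pools.

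**Figure D4:**
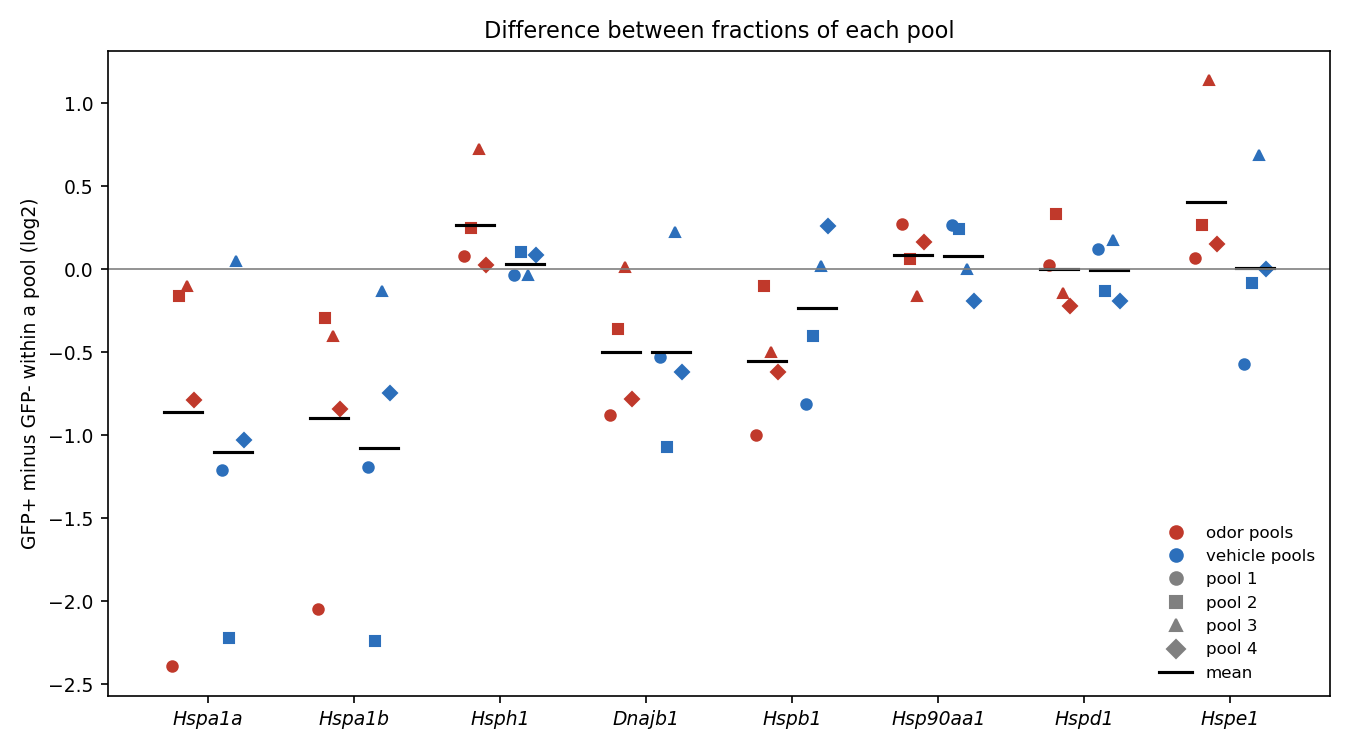
GFP+ minus GFP- log2 difference of each pool for the 8 chaperones, odor pools in red and vehicle pools in blue, with black bars for the means of 4 pools. All 8 Hspa1b points are under 0, and the lowest points of Hspa1a and Hspa1b belong to odor pool 1 and vehicle pool 2.

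A mean over both arms, added after the data had been seen and made from the same differences, gave 4 of 8 members as lower and 0 as higher in GFP+ cells (background 32.2% of genes, 13.9% lower and 18.3% higher). Hspa1b fell by 0.99 ± 0.23 (SE, n = 8 pools, adjusted p = 0.00793), to a level 0.504 times that of GFP- cells. An exact sign-flip permutation test over its 8 pools gave an unadjusted two-sided p = 0.00781, the smallest that 8 pools allow. As all 8 differences had 1 sign, this p was fixed and only restates the count of 8 of 8 pools. The same test gave an unadjusted p of 0.0156 for Hspa1a, 0.0312 for Dnajb1 and 0.0469 for Hspb1. It gave 0.0547 or more for Hsph1, Hsp90aa1, Hspd1 and Hspe1. Hspa1a fell by 0.98 ± 0.27 (adjusted p = 0.0180) and Dnajb1 by 0.50 ± 0.15 (adjusted p = 0.0243), and the fourth was Hspb1, under the background (adjusted p = 0.0472). The Dnajb1 call was lost in 7 of 15 alternatives, with a difference of -0.16 under centring (adjusted p = 0.319) and an adjusted p of 0.0678 without odor pool 1, 0.0655 without odor pool 4, 0.0717 without vehicle pool 2 and 0.0590 without vehicle pool 4. The Hspb1 call was lost in 9 of 14. Without vehicle pool 2 only Hspa1b passed (-0.79, adjusted p = 0.0199), and Hspa1a had an adjusted p = 0.0518. Without odor pool 1, Hspa1a and Hspa1b passed, and without odor pool 4 likewise 2 members. With ordinary variances or without the pool as a block 0 of the 8 passed, and with quantile normalization Hspa1b had an adjusted p = 0.0602. Centring on array medians gave a median of all genes of 0.46 in place of 0.12, left Hspa1a and Hspa1b as lower (-0.64 each) and gave Hsph1, Hsp90aa1, Hspd1 and Hspe1 as higher by 0.34 to 0.55. Whether those 4 passed therefore rests on the scaling, and for Hspd1, at -0.0035 without centring, the direction does too. The markers of other cells named above, and 10 of 12 immediate early genes in either arm, were lower in GFP+ cells of the same pools, and their part in these differences was not tested.

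Whether odor exposure changed the chaperones was asked in each fraction. In GFP+ cells 0 of 8 members passed, with limma calling 0% of all genes. An unadjusted p under 0.05 was found for 1 of 8 members, Hspb1, and for 1070 genes (5.49%). Hsph1 averaged 11.002 ± 0.55 in odor GFP+ cells and 10.56 ± 0.27 in vehicle GFP+ cells (SD, n = 4 each). Its levels were 11.67, 10.32, 10.93 and 11.09 in odor and 10.18, 10.81, 10.64 and 10.62 in vehicle pools 1 to 4. The groups overlapped, and the difference of 0.44 ± 0.25 did not pass (SE, adjusted p = 0.927). Hspa1a differed by -0.48 ± 0.38 (adjusted p = 0.962) and Hspa1b by -0.47 ± 0.37 (adjusted p = 0.960), and they were at -0.0094 and -0.0072 without vehicle pool 2. Hspb1, under background, differed by -0.42 ± 0.17 (adjusted p = 0.892).

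In GFP- cells 0 of 8 members passed, and 0 had an unadjusted p under 0.05. Over all genes 1 was called (0.00513%) and 697 (3.57%) had an unadjusted p under 0.05. Hspa1a averaged 8.55 ± 0.94 in odor GFP- cells and 9.27 ± 1.82 in vehicle GFP- cells, a difference of -0.73 ± 0.77 (adjusted p = 1), and Hspa1b differed by -0.65 ± 0.76. These differences turned sign without vehicle pool 2, to 0.12 for Hspa1a and 0.20 for Hspa1b, and Dnajb1, at -0.16 with all pools, to 0.14. Dnajb1 had levels of 11.33, 10.23, 10.32 and 10.94 in odor GFP- cells and 10.67, 11.79, 10.25 and 10.76 in vehicle GFP- cells of pools 1 to 4. In GFP+ cells it had 10.46, 9.87, 10.34 and 10.16 after odor and 10.15, 10.72, 10.47 and 10.15 after vehicle. Hspe1 differed by -0.29 ± 0.22 in GFP- cells, and the odor and vehicle levels of each of the 8 members overlapped in both fractions, where 3.21% of genes in GFP+ and 2.48% in GFP- cells had levels that did not overlap.

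The difference between fractions did not differ detectably between odor and vehicle pools for any of the 8 members (0 called, background 0% of genes). An unadjusted p under 0.05 was found for 0 members and for 654 genes (3.35%). Estimates ran from -0.32 ± 0.27 for Hspb1 to 0.40 ± 0.31 for Hspe1. The estimates of 0.24 for Hspa1a and 0.18 for Hspa1b were smaller than their SEs of 0.55 and 0.47.

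**Figure D5:**
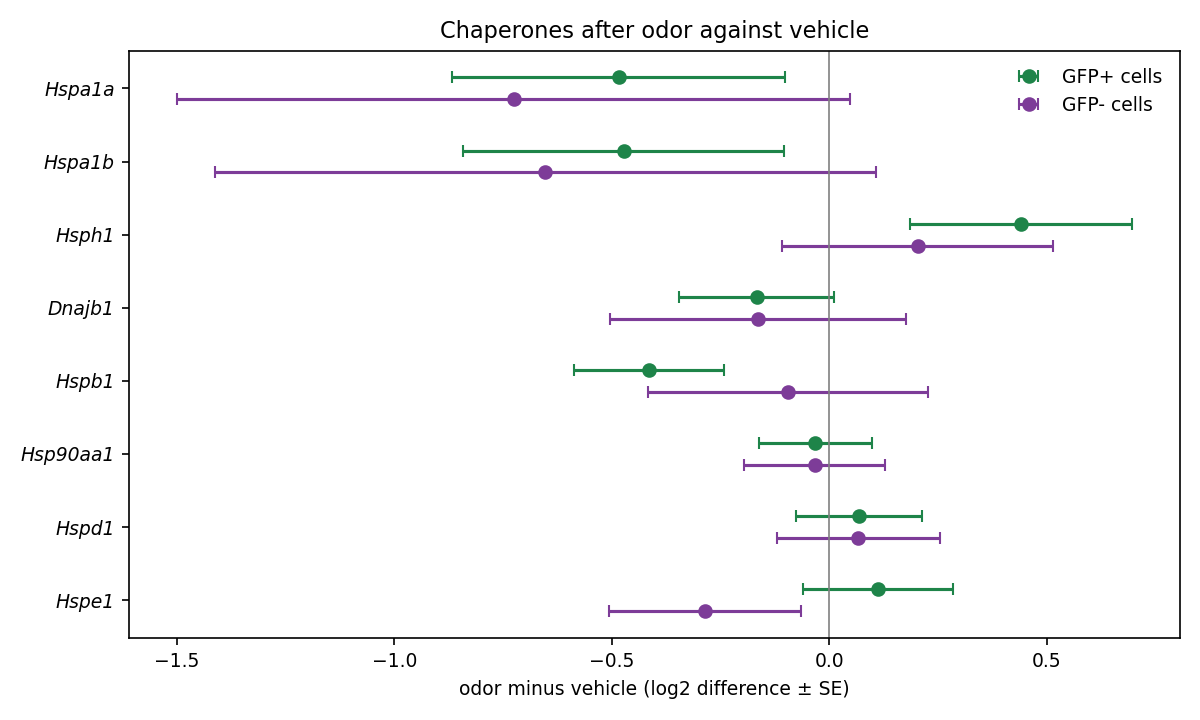
Odor minus vehicle log2 difference ± SE (n = 4 samples a group) for the 8 chaperones in GFP+ (green) and GFP- cells (purple). The widest bars are those of Hspa1a and Hspa1b in GFP- cells (SE 0.77 and 0.76), and the narrowest is that of Hsp90aa1 in GFP+ cells (SE 0.13).

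Hsp90aa1 lay between 16.01 and 16.53 on all 16 arrays, with odor minus vehicle differences of -0.031 ± 0.13 in GFP+ and -0.034 ± 0.16 in GFP- cells. Hspd1 lay between 12.04 and 12.76, with 0.07 ± 0.14 in GFP+ and 0.07 ± 0.19 in GFP- cells. Hspe1 ranged from 9.56 to 10.76, and its SD within groups, given above, was over the median of all genes.

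The wider chaperone network, 75 measured genes in 9 lists of families and cochaperones, held few calls. In odor pools 2 were higher and 2 lower in GFP+ cells, and in vehicle pools 2 higher and 1 lower, below the shares over all genes given above. Fkbp5, an Hsp90 cochaperone of the glucocorticoid receptor, fell by 1.55 ± 0.15 in odor pools (adjusted p = 1.42e-05) and by 1.34 ± 0.15 in vehicle pools (adjusted p = 4.49e-05). It averaged 9.28 ± 0.31 in GFP+ and 10.83 ± 0.36 in GFP- cells after odor and 9.19 ± 0.17 in GFP+ and 10.54 ± 0.47 in GFP- cells after vehicle (SD, n = 4 each), and it passed under each of 15 alternative settings in both arms. Bag3, an Hsp70 nucleotide exchange factor and a known target of heat shock factor 1, was higher in GFP+ cells by 0.65 ± 0.18 in odor pools (adjusted p = 0.0288) at levels of 5.998 to 7.30. This call ended without odor pool 2 (adjusted p = 0.131), without odor pool 4 (0.103) and with ordinary variances (0.0789). Hspbp1, another exchange factor, was higher by 0.60 ± 0.12 in vehicle pools (adjusted p = 0.00420). Hspa12a was higher by 0.43 ± 0.13 (adjusted p = 0.0449) and Hspa2 fell by 0.42 ± 0.13 in odor pools (adjusted p = 0.0496), and Hspa1l was higher in vehicle pools (0.65 ± 0.20, adjusted p = 0.0408) but under the background on all arrays. The Hspa2 call was lost in 9 of 15 alternatives, with a difference of -0.0813 under centring (adjusted p = 0.597), the Hspa12a call in 8 of 15, with an adjusted p of up to 0.123, and the Hspa1l call in 5 of 14, with one of up to 0.189. The Hspbp1 call passed in each of 15.

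Over both arms together 9 of the 75 were higher and 2 lower (12.0% and 2.67%, against 18.3% and 13.9% of all genes), the 4 with the largest differences being Fkbp5 (-1.44 ± 0.10), Bag3 (0.58 ± 0.13), Hspbp1 (0.48 ± 0.09) and Bag4 (0.44 ± 0.13). Among 5 measured heat shock factors and regulators (Hsf2, Hsf4, Hsf5, Hsbp1 and Hsf2bp), Hsf2 was higher by 0.26 ± 0.09 (adjusted p = 0.0417). The gene of heat shock factor 1 was not among these 5. Of 10 Hsp40 cochaperones other than Dnajb1 and 8 subunits of the cytosolic chaperonin CCT, 0 passed in this or any other comparison. Odor against vehicle gave 0 of 75 in GFP+ cells, in GFP- cells and for the within-pool difference.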

How the data were processed

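RNA of 16 sorted samples had been hybridised to Clariom S arrays, after labelling from 50 to 100 ng of total RNA, per the labels. The deposited values were made with Affymetrix Expression Console, per the submitters' processing notes; version, background correction and normalization are not stated there. The deposited values were taken as log2, since they run from 1.67 to 19.35. The number of arrays limits the precision.

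Of 28846 probes, 19572 had 1 gene symbol, 0 several and 9274 none in the platform annotation, and all 19572 matched RefSeq GRCm38.p6 by gene ID. For 55 genes with several probes the brightest probe was used, which left 19505 genes. Members and lists were chosen with earlier results of these data known. The genes named are the members, up to 4 called genes of each other chaperone list with the largest differences, and the 3 genes nearest to each member by Pearson's r. Groups and pools were taken from the sample titles, where 2 vehicle pools share the number 3; the later one was called 4 here.

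Tests used limma 3.58.1 in R 4.3.3, two-sided, with Benjamini-Hochberg adjustment over 19505 genes at 0.05. GFP+ was set against GFP- on 8 within-pool differences with a variance shared by both arms, and odor against vehicle in 8 samples of each fraction and on the within-pool differences. The mean over both arms was added after the data were seen. The fits were tested on simulated data. Each pool held 3 mice, and p-values reflect only the spread between pools. Fractions of a pool deviated together from their group means (r = 0.109 to 0.249 across genes). Same-numbered odor and vehicle samples did so at 0.114 to 0.242 in GFP+ cells and at 0.0664 to 0.332 in GFP- cells. The reported fits of odor against vehicle did not pair samples by number, and a replicate block did so as an alternative. Start regions came from a RefSeq table. Alternatives were centring, quantile normalization, a filter at a mean level of 6, the mean of probes, other variance estimates, blocks and leaving out each pool.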

Additional observations from a re-analysis of the deposited data

Results flagged for a closer look

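Of 48 sets of 4 values tested (the levels of the 8 members in 4 groups and their within-pool differences in 2 arms), 3 held a value far from the other 3 by Dixon's ratio, and chance flags about 1 in 20 such sets. Hspa1b stood at 8.22 in the GFP+ cells of vehicle pool 2, against 6.31 to 6.41 in the other vehicle GFP+ samples. In the same sample Hspb1 stood at 4.07, against 4.33 to 4.35, with all of these values under the background. Hsp90aa1 stood at 16.49 in the GFP- cells of odor pool 3, against 16.12 to 16.18 in the other odor GFP- samples.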

How the results depend on the processing

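The 3 comparisons of odor with vehicle gave 0 members under each of 15 alternatives. These held a replicate block with the number as a factor, so pairing by number changed no call of a member. The comparisons of fractions depended on the settings, and the cause was not tested. In odor pools the count of members called, 0 as reported, was 3 with centring (all higher), 1 with quantile normalization and 0 to 1 when a pool was left out. In vehicle pools the count, 1 as reported, was 2 with centring (both higher), 0 with quantile normalization, with ordinary variances or without the pool as a block, and 0 to 3 when a pool was left out (0 without vehicle pool 1, 2 or 4 or odor pool 4, 2 without odor pool 1 and 3 without vehicle pool 3). Over all 8 pools the 4 calls became 0 with ordinary variances or without the pool as a block, 6 with centring, and 1 to 4 when a pool was left out. Centring raised the median GFP+ minus GFP- difference of all genes to 0.46 in odor pools and 0.45 in vehicle pools, the genes called to 12346 and 12265, and the share of calls that were higher to 86.5% in both, against 42.9% in odor and 45.1% in vehicle pools as reported, while quantile normalization gave 56.6% and 58.4%. The 1 gene called for odor in GFP- cells was lost with ordinary variances and in 7 of 8 runs that left out a pool. Of 818 gene values under alternatives, 50 changed sign, each for a difference that was not called as reported, 38 of them when a pool was left out. Of these, Hspd1 over all 8 pools passed as higher under centring (adjusted p = 0.00859). Under centring Hspd1 turned to 0.34 in odor pools, in vehicle pools and over all pools, Hspb1 to 0.11 in vehicle pools, and the within-pool differences of Hsp90aa1 and Hspd1 to -0.0023 and -0.0014. Under quantile normalization Hsp90aa1 turned to -0.0141 in odor pools and -0.0042 over all pools, Hsph1 to -0.0303 and Hspe1 to -0.0525 in vehicle pools, and the within-pool differences of Hsp90aa1 and Hspd1 to -0.0197 and -0.0077. When a pool was left out, values that changed sign ranged as follows. For GFP+ minus GFP-, Hspd1 ran in odor pools from -0.11 to 0.0713, in vehicle pools from -0.0656 to 0.0565 and over all 8 pools from -0.0587 to 0.0331, and Hspe1 ran in vehicle pools from -0.22 to 0.20. For odor minus vehicle in GFP+ cells, Hspe1 ran from -0.0252 to 0.22, Hsp90aa1 from -0.0964 to 0.0257 and Hspd1 from -0.0224 to 0.15. In GFP- cells Hsph1 ran from -0.0823 to 0.42, Hspb1 from -0.40 to 0.13, Hsp90aa1 from -0.12 to 0.0266, Hspd1 from -0.0307 to 0.21, Hspa1a from -1.28 to 0.12, Hspa1b from -1.14 to 0.20 and Dnajb1 from -0.37 to 0.14. For the within-pool difference Dnajb1 ran from -0.19 to 0.24, Hsp90aa1 from -0.0876 to 0.0845, Hspd1 from -0.11 to 0.0764, Hspa1b from -0.21 to 0.56 and Hspa1a from -0.13 to 0.75. Hspb1 could not be given under the filter on dim genes. Signals near or under the background limit Hspa1b in GFP+ cells, all values of Hspb1, Hspb2 and Hspa1l, and several of the nearest genes named in the report.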
